A study of Mus musculus with 2 samples.

Results

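Gene deserts are stretches of the genome with no protein-coding gene, and 3679 open chromatin regions that lie deep inside them were examined in mouse skin. A region qualified when it lay on an autosome, outside every protein-coding gene span and over 200 kb from the nearest protein-coding gene end in the RefSeq annotation of GRCm38, with 20 to 10000 counts summed over both libraries. These 3679 regions were 3.95% of the 93145 autosomal regions within the same count limits, out of 109257 regions in all. The rule used position and the summed count alone, so the split of the counts between the libraries and the peaks were free to vary.

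ATAC-seq, which reads where the transposase Tn5 can reach the DNA, had been run on basal keratinocytes of the interfollicular epidermis of the back, sorted as ITGA6+ CD34-. One library came from an untreated CD1 mouse (treatment label none, called control) and the other from a CD1 mouse whose skin had been stretched (treatment label tissue stretching, called stretched). Each group was 1 mouse and 1 library of 10000 sorted cells, and CD1 is an outbred stock. Stretching, the individual animal, its genotype and the library can therefore not be told apart in any comparison, and no test across animals was possible.

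As background, an open region far from genes is usually an enhancer or an insulator, a stretch of DNA bound by transcription factors or by CTCF. Deserts often border genes of development, whose enhancers can act over very long distances through chromatin loops. Other deserts border large genes of neuronal adhesion. Deserts also hold long non-coding RNA genes and microRNA genes, which the rule did not look at.

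The control library held 8820178 counts and the stretched library 11803785, of which the desert regions took 153632 and 158673. Every fold is stretched over control after TMM scaling, with an exact 95% Clopper-Pearson interval that covers counting error only. All 6 basal keratinocyte genes checked (Krt5, Krt14, Itga6, Itgb4, Trp63 and Col17a1) had a peak at a gene end in both libraries, as had the 4 hair follicle genes (Cd34, Krt15, Lhx2 and Sox9) and the 3 melanocyte genes (Mitf, Dct and Mlana). Of the other markers, 0 of 3 immune genes, 0 of 2 endothelial genes and 1 of 3 fibroblast genes (Col1a1) had one. Counts at the melanocyte genes ran from 29 to 195 (control) and from 21 to 209 (stretched), and at the hair follicle genes from 74 to 225 and from 46 to 192. A part of these cells in the desert results was not tested.

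Sequences are shown for the desert elements that a reference table names, since they say what some of the regions are. Among the deserts, 16 annotated microRNA genes lay within 10 kb of 29 regions, and 13 of them had a mature sequence in RefSeq (GRCm38.p6). The 3 loci on which the results turn are given here 5′ to 3′ with the seed, bases 2 to 8, in capitals. The locus of Mir100, Mirlet7a-2 and Mir125b-1 lies on chromosome 9, that of Mir99a, Mirlet7c-1 and Mir125b-2 on chromosome 16, and the Mir344 genes on chromosome 7.
miR-100-5p: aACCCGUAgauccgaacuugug
miR-99a-5p: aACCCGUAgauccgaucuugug
miR-125b-5p: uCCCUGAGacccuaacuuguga
let-7c-5p: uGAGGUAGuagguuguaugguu
let-7a-2-3p: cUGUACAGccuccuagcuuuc
miR-344b-3p: cAUUUAGCcaaagccugacugu
miR-344d-3p: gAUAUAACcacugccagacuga
miR-344h-3p: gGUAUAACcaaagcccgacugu
The first pair share the seed ACCCGUA, and miR-125b-5p is the same molecule from chromosomes 9 and 16, so the loci on these chromosomes are paralogous copies. The Mir344 products printed here differ in seed, while the 5p arms of Mir344b and Mir344d-3, not printed, share the seed GUCAGGC.

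Start windows of long non-coding RNA genes (300 bases, 250 before to 50 after the start, RefSeq GRCm38.p6) touched 74 desert regions through 83 windows of 75 genes. Windows are shown for the desert region with the largest fold among the 8 of most counts, for a region beside Klf5, and for the host genes of the microRNA loci on chromosomes 16 and 9. Capitals mark GGGCGG (KLF and SP factors), TGTGGT (RUNX) and CATTCC (TEAD), searched on both strands with TGANTCA (AP-1), AACCNGTT (grainyhead) and the palindromic motifs of p63 and NFI.
Gm26901, chr1:7398047-7398346, minus strand: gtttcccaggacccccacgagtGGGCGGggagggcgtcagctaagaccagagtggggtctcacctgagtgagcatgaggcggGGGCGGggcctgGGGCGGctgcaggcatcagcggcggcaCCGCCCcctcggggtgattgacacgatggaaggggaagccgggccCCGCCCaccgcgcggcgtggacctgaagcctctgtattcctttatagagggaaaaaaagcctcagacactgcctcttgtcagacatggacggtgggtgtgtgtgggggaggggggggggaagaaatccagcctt
Gm41230, chr14:99521587-99521886, plus strand: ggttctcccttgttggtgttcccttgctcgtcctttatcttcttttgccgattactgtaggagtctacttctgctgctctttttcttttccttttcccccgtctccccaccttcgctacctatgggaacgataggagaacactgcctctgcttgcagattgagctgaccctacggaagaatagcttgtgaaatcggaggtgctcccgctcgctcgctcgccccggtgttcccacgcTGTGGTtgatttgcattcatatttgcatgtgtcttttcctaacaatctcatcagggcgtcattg
Mir99ahg, chr16:77329078-77329377, plus strand: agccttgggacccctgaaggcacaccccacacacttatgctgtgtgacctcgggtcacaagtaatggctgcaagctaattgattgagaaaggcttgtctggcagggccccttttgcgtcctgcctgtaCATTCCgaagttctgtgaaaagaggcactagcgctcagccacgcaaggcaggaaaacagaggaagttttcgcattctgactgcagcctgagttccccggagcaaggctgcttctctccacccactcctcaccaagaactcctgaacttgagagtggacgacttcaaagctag
Mir100hg, chr9:41474643-41474942, plus strand: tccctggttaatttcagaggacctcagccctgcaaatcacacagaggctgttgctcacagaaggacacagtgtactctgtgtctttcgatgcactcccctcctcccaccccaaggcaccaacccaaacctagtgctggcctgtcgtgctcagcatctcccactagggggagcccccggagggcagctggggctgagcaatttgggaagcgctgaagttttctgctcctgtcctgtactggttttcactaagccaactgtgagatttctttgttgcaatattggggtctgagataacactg
The Gm26901 window held GGGCGG 5 times over both strands, the Gm41230 window held TGTGGT at 1 place, the Mir99ahg window held CATTCC at 1 place and the Mir100hg window held none of the motifs searched. Over all autosomal windows GGGCGG was present in 36.0%, over lncRNA windows in 16.3%, and over the 83 windows touching a desert region in 7.23%. TGANTCA was present in 7.84%, 9.25% and 13.3%, CATTCC in 14.6%, 16.7% and 19.3%, and TGTGGT in 16.7%, 20.1% and 18.1%. A match is a description of letters, not of a bound site.

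Desert regions were sparse and weak beside those near genes. There were 7.67 regions per Mb in sequence over 200 kb from a protein-coding gene, against 25.0 per Mb at 50 to 200 kb and 43.2 per Mb within 50 kb outside genes. The median desert region was 645 bp long with 52 summed counts, where the median over all autosomal regions was 718 bp and 70 counts. Both libraries had a listed peak in 1929 desert regions (52.4%), the stretched library alone in 793 (21.6%), the control alone in 383 (10.4%), and 574 (15.6%) held no listed peak. Over all autosomal regions these shares were 60.3%, 14.7%, 9.42% and 15.6%. Peaks listed in the stretched library alone thus took a larger share of the deserts than of all regions. This was not particular to deserts. Such peaks took 22.1% of regions inside a gene but over 200 kb from its ends, and 18.5% of intergenic regions at 50 to 200 kb.

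The peaks themselves were near the background in fold enrichment and below it in summit pileup. Where both libraries had a peak (1929 regions), the median of the authors' fold enrichment was 5.21 for control and 6.68 for stretched, against 5.43 and 6.71 over all autosomal regions and 6.90 and 9.37 at gene ends. Summit pileups had medians of 25 control and 28 stretched fragments, against 32 and 34 over all autosomal regions and 48 and 68 at gene ends. Regions inside a gene but over 200 kb from its ends had 24 and 25. Relative to the median change of all 56125 autosomal regions with peaks in both libraries, the pileup of desert regions changed by a median of 1.03-fold.

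The stretched library gave more desert regions called higher than the background did, and about as many called lower. A region was called when its fold was at least 2, or at most 0.5, with an interval that left out 1. By that rule 361 desert regions (9.81%) were higher in the stretched library, beside 6.99% of all autosomal regions, and 348 (9.46%) were lower, beside 8.79%. The median log2 fold of the desert regions was 0.07, with 1921 regions above a fold of 1 and 1758 below, and that of all autosomal regions was -0.01. The direction of the median depends on the scaling. Scaled by total counts, 123 desert regions were higher and 821 lower, beside 1.62% and 23.5% of all autosomal regions, and the median log2 fold was -0.43 beside -0.51.

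Other intergenic regions had smaller shares called higher. The share was 8.66% of 9612 intergenic regions at 50 to 200 kb and 7.06% of 25167 within 50 kb, with 8.79% and 9.25% lower. Regions inside a long gene but over 200 kb from its ends were near the desert values, at 9.00% higher and 9.00% lower of 1477. Regions at a gene end were 9.45% higher and 2.53% lower of 11051. These classes differ in depth, and the median summed count at gene ends was 250.

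Within the deserts the shares went with the summed count. Of the 826 regions with 20 to 31 counts, 9.69% were higher and 12.3% lower, beside 8.28% and 12.6% of all autosomal regions in that range. Among 863 regions with 64 to 127 counts the shares were 10.2% and 7.53%, beside 5.52% and 8.20%. Among 486 regions with 128 to 255 counts they were 7.82% and 2.06%, beside 4.41% and 3.07%. At 256 counts or more, 4.09% of 171 desert regions were higher and none lower, beside 8.68% and 0.72% of all autosomal regions. In that range 13.7% of regions at gene ends were higher, 28 of 636 intergenic regions at 50 to 200 kb were higher and 71 of 1705 within 50 kb (4.16%), so the desert share was close to that of the other intergenic classes.

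**Figure D1:**
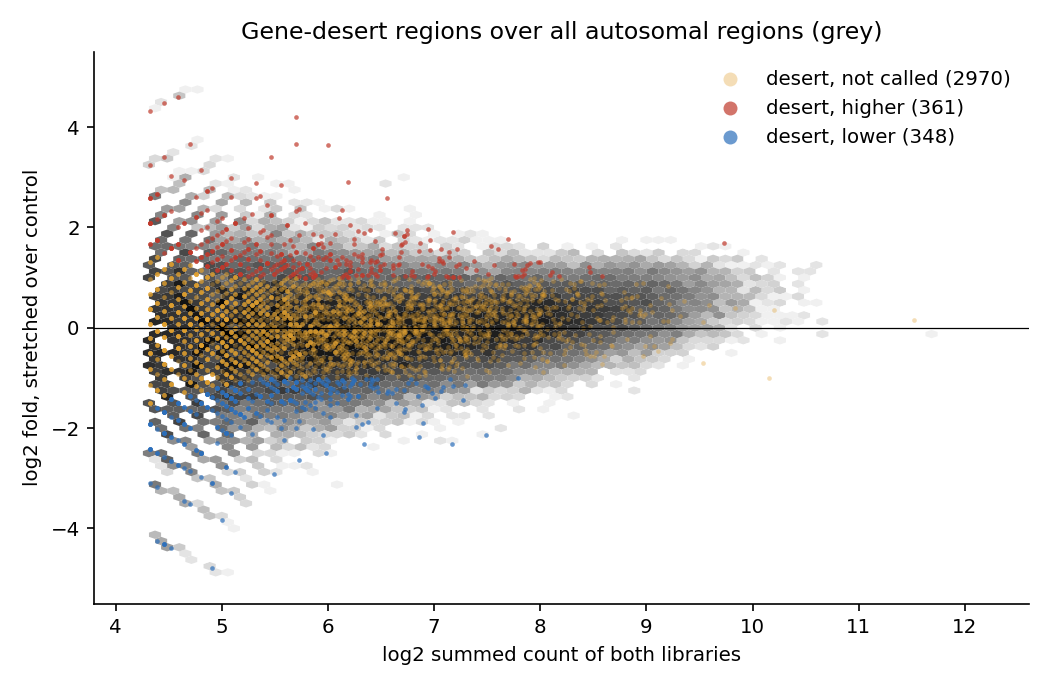
Each coloured point is a gene-desert region, with the log2 of its summed count over both libraries on the x axis and its log2 fold, stretched over control, on the y axis. Grey hexagons show all autosomal regions, darker where there are more, and the 361 red and 348 blue points are the regions called higher and lower. The strongest lower calls sit at low counts, and the region of Gm26901 (851 counts) is the red point far to the right.

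Within the deserts, over all counts together, the share called higher rose with the distance from genes. It did not rise across the 200 kb limit, since 9.03% of the 4288 intergenic regions at 100 to 200 kb were higher. At 200 to 300 kb from a gene end (1702 regions) 8.11% were higher and 10.3% lower, and the median log2 fold was -0.03. At 300 to 500 kb (1327 regions) 9.72% were higher and 8.59% lower, with a median of 0.08. At 500 to 1000 kb (556 regions) the shares were 14.0% and 9.17% and the median 0.20. Beyond 1000 kb (94 regions) they were 17.0% and 8.51% and the median 0.38. Peaks listed in the stretched library alone took 19.2%, 22.7%, 24.5% and 31.9% of the regions in the same order. The rise was not alike at every count. Among regions of 128 to 255 counts the share called higher was 5.43% at 200 to 300 kb (221 regions), 7.95% at 300 to 500 kb (176) and 14.7% at 500 to 1000 kb (75). For 64 to 127 counts these shares were 7.82%, 10.6% and 15.4%, and for 20 to 31 counts 6.89%, 10.0% and 16.1%. For 32 to 63 counts, the range with most regions, they were 10.5%, 10.2% and 12.4%. At 256 counts or more no rise was seen, with 4 of 89, 3 of 61 and 0 of 17 regions higher. Beyond 1000 kb the regions were few in each range and the rise did not go on in all. There 10 of 38 regions with 32 to 63 counts and 3 of 13 with 64 to 127 were higher. Only 2 of 25 with 20 to 31 counts, 1 of 14 with 128 to 255 and 0 of 4 above that were.

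**Figure D2:**
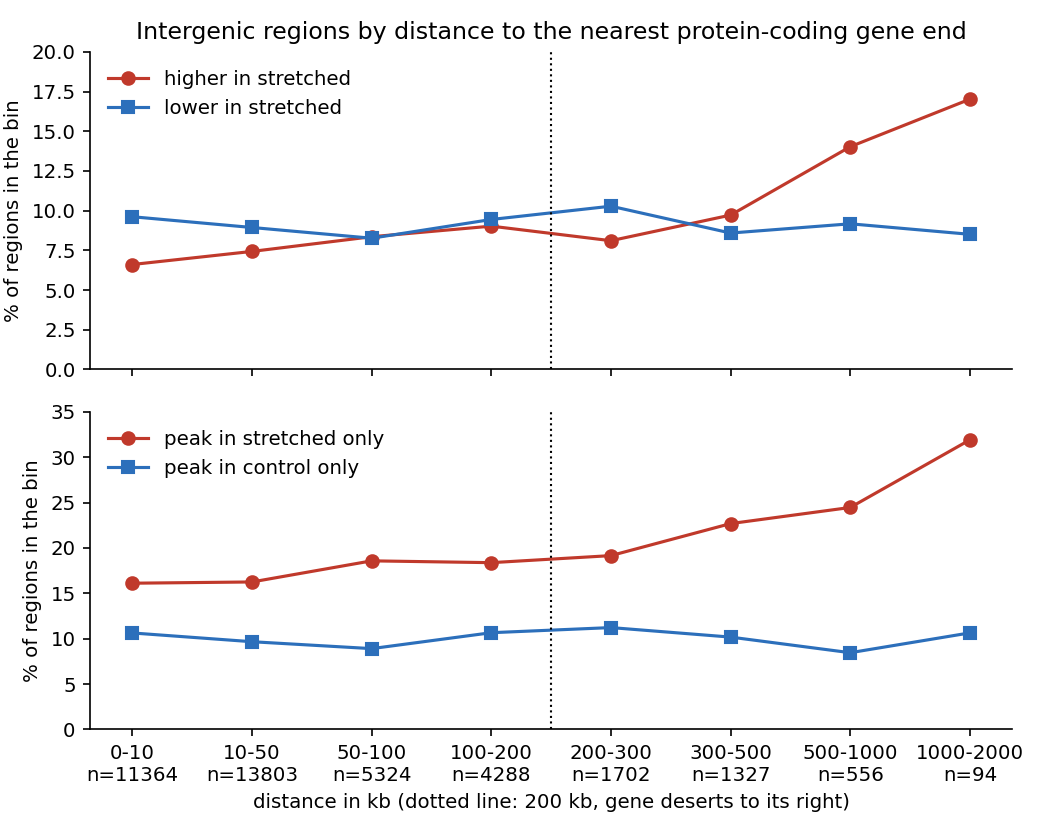
The x axis gives bins of distance from the nearest protein-coding gene end for intergenic regions, with the number of regions in each, and the gene deserts lie to the right of the dotted line. The upper panel gives the percentage called higher (red) or lower (blue) in the stretched library and the lower panel the percentage with a peak in only the stretched (red) or only the control library (blue). The red lines reach 17.0% and 31.9% in the bin beyond 1000 kb, while the blue lines stay between 8.26% and 11.2%. The upper red line dips at the dotted line, from 9.03% at 100 to 200 kb to 8.11% at 200 to 300 kb.

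The values just inside and just outside the limits of the rule were as follows. Desert regions at 200 to 250 kb (1028) were 8.46% higher and 11.2% lower, and intergenic regions at 150 to 200 kb (1658) were 9.89% and 9.77%. Desert regions of 20 to 24 counts (356) were 10.7% higher and 13.5% lower, and those of 15 to 19 counts, which the rule leaves out (362), were 6.63% and 10.8%.

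The summit pileup, taken from the same libraries as the counts, moved the same way. The called regions were chosen by their counts, so this is a description and not separate support. Of the 113 desert regions called higher with a peak in both libraries, 110 had a pileup change above the median change of all regions, with a median of 1.79-fold. Of the 128 called lower, 123 were below it, with a median of 0.545-fold. Across the 1929 regions with both peaks the log2 folds of the counts and of the pileups had a Pearson r of 0.74 and a Spearman rho of 0.74, a description in which both measures come from the same libraries. Of the other higher regions, 215 had a peak in the stretched library alone, 2 in the control alone and 31 in neither. Of the other lower regions, 163 had a peak in the control alone, 11 in the stretched library alone and 46 in neither.

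Most desert regions were gathered in a minority of deserts. Of 737 gaps over 400 kb between neighbouring protein-coding genes, 487 held at least 1 region and 250 held none. The 128 deserts with 10 or more regions held 2500 of the 3679, and the 5 fullest held 297 (8.07%). Folds of the summed counts over these 128 deserts ran from 0.494 to 2.35 with a median of 1.08, and the interval lay above 1 in 59 deserts, below 1 in 32 and across 1 in 37. Regions of opposite call often shared a desert: of the 120 deserts with a called region, 52 had calls in both directions, 31 only higher and 37 only lower. Under total scaling 19 of the 128 folds stayed above 1, where TMM scaling gave 78.

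**Figure D3:**
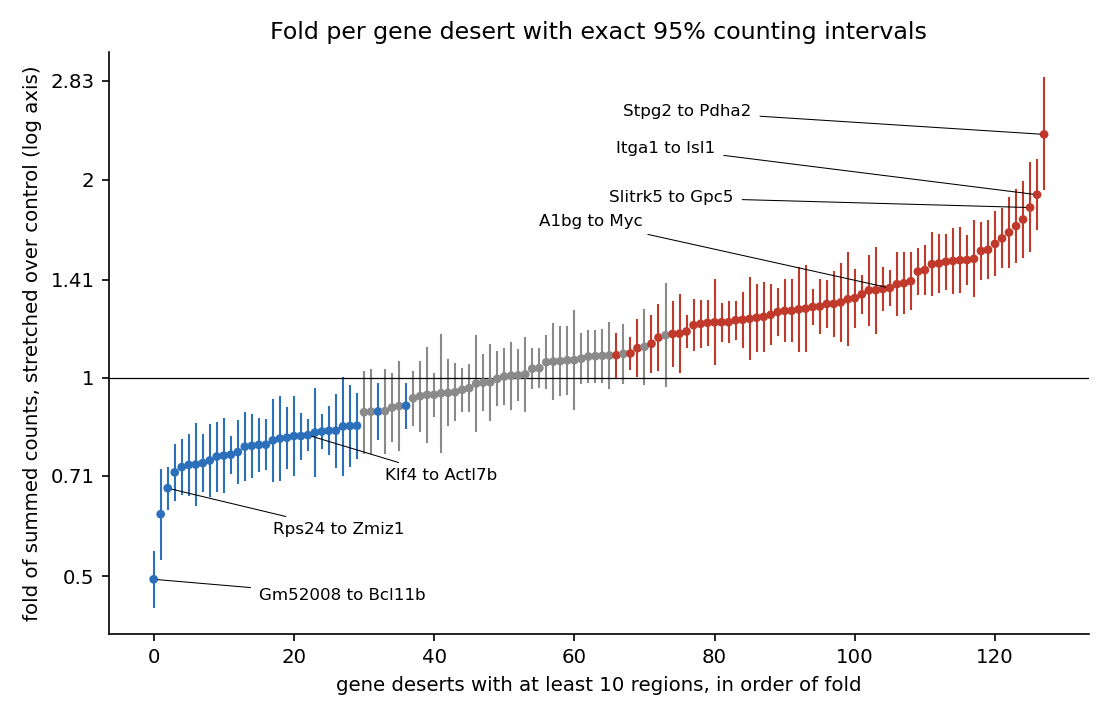
Each point is 1 of the 128 gene deserts with at least 10 open regions, ordered by the fold of its summed counts (stretched over control, log axis), and bars are exact 95% intervals for counting error. Red intervals lie above 1 (59 deserts), blue below 1 (32) and grey across 1 (37), with the deserts named in the text marked from Gm52008 to Bcl11b at 0.494 up to Stpg2 to Pdha2 at 2.35.

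The fullest desert lay on chromosome 8 between Slc10a2, an intestinal bile acid transporter, and Efnb2, the ligand ephrin-B2. Its 68 regions in 3.51 Mb held 2571 counts of the control and 2863 of the stretched library (fold 1.18, 1.12 to 1.24), with 9 regions higher and 5 lower. The region of most counts there, chr8:7945940-7946902, had 184 and 193 counts and differed by less than counting error (fold 1.11, 0.901 to 1.36). Deeper in the same desert, chr8:6780903-6781643 lay 1676 kb from the nearest gene end, had 40 control and 101 stretched counts and was called higher (fold 2.67, 1.83 to 3.95). Its neighbour chr8:6789234-6789564, at 1684 kb, had 18 and 23 counts and an interval across 1. The desert region farthest from any gene end, chr2:99816109-99816473 between Lrrc4c and Iftap at 1744 kb, had 10 and 25 counts and was called higher without a listed peak (fold 2.64, 1.23 to 6.16).

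The deserts next in number of regions bordered factors of the skin. Between Celf2 and Gata3 on chromosome 2, 66 regions held 2719 and 2804 counts (fold 1.09, 1.03 to 1.15), with 5 higher and 4 lower. GATA3 is a transcription factor of the hair follicle and the epidermal barrier. The leading region, chr2:9553068-9553937, stood 303 kb from Gata3, and its 213 control and 166 stretched counts gave an interval across 1 (fold 0.824, 0.668 to 1.01). Between Klf4, a factor of terminal differentiation and the skin barrier, and Actl7b, an actin-like gene of the testis, 58 regions held 3352 and 2597 counts. The fold was 0.819 (0.778 to 0.862), with 45 of the 58 regions below 1, 8 called lower and 3 called higher. Its leading region, chr4:56113266-56114385, lay 581 kb from Klf4, had 327 and 224 counts (fold 0.724, 0.608 to 0.861), and was among the 3 desert regions of highest fold enrichment in the control (18.2, stretched 17.6).

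The 2 deserts that follow bordered genes of cell signalling. Between Slc4a3, an anion exchanger, and Epha4, an ephrin receptor, 53 regions held 2526 and 1982 counts (fold 0.829, 0.781 to 0.880), with 9 lower and 2 higher. Its leading region, chr1:76343454-76344579, had 169 and 137 counts and an interval across 1 (fold 0.857, 0.679 to 1.08). Between Jag1, a Notch ligand, and Btbd3, a gene of dendrite orientation, 52 regions held 1959 and 2377 counts (fold 1.28, 1.21 to 1.36), with 7 higher and 1 lower. The leading Jag1 region, chr2:137455338-137456610, lay 339 kb away and had 152 and 230 counts (fold 1.60, 1.30 to 1.98). Under total scaling all 5 of these deserts had folds below 1, from 0.579 for Klf4 to 0.907 for Jag1. A scaling multiplies all folds by 1 factor, so it can change their direction and not their order.

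**Figure D4:**
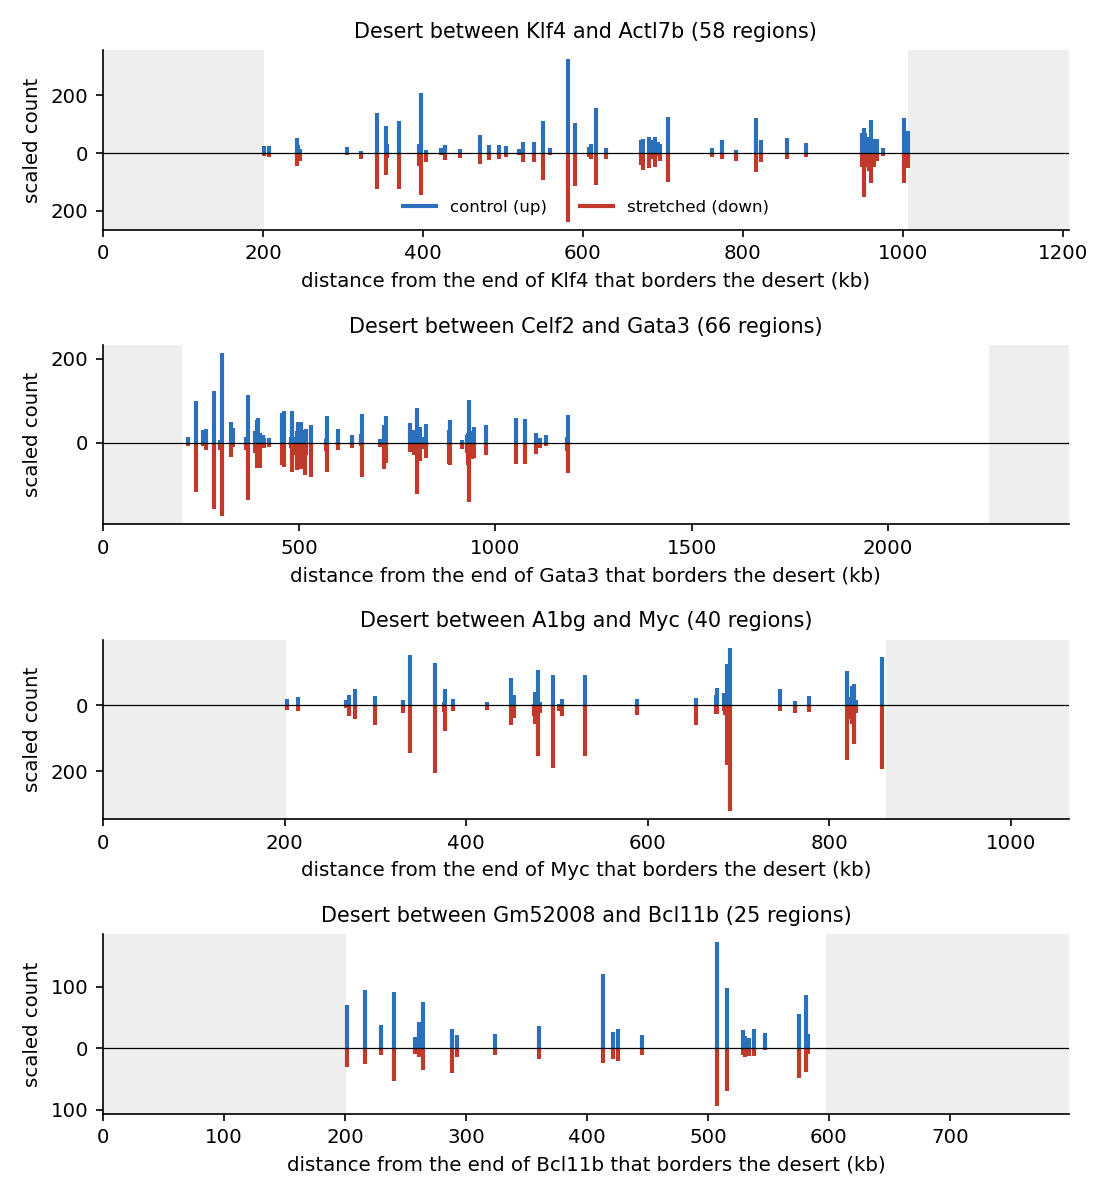
Each panel is 1 desert, and each line is 1 open region at its distance in kb from the end of the named gene, with the control count drawn upward (blue) and the stretched count divided by 0.946, the TMM ratio, drawn downward (red). Grey bands are the 200 kb beside the flanking genes that the rule leaves out. Lines beside Klf4 and Bcl11b are mostly longer upward, those beside Myc mostly longer downward, and those beside Gata3 about level.

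Of the deserts grouped by their flanking genes, those beside genes that shape the epidermis were the most densely open. Genes of 4 lists were compared as desert neighbours: epidermal and skin factors, other developmental transcription factors, ligands and secreted regulators, and synaptic and neuronal adhesion genes. Deserts of the epidermal list held 34.0 regions per Mb, those of the ligands 12.9, of the other developmental factors 10.2, of deserts with no listed gene 8.47, and of the neuronal list 2.03. No desert was counted under more than 1 list.

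The directions differed by list as well. Epidermal factors had 25 higher (5.54%) and 52 lower (11.5%) among their 451 regions, and the median log2 fold was -0.12. Of the 52 lower calls, 12 came from 1 desert, that of Bcl11b. Beside neuronal genes 54 of 258 were higher (20.9%) and 17 lower (6.59%), with a median of 0.37 and a peak in the stretched library alone in 35.3%. Beside ligands 14 of 122 were higher (11.5%) and 8 lower (6.56%), with a median of 0.39. Other developmental factors had 8.02% higher and 10.5% lower of 324, and the 2524 regions with no listed neighbour 9.59% and 9.39%. Among regions of at least 100 counts, 12 of 53 neuronal ones were higher (22.6%) and 2 lower. Of 132 epidermal ones 5 were higher (3.79%) and 5 lower (3.79%), so these calls were few and equal in number. Of all 910 desert regions at that depth 7.69% were higher and 2.86% lower. The epidermal share of higher calls was thus below that of all deserts. For lower calls, 3.79% rests on 5 regions and is not read as different from 2.86%. Among regions within 500 kb of a gene end, 30 of 169 neuronal ones were higher (17.8%), beside 8.81% of 3029. These lists were drawn up with earlier results of the data known, and their regions share deserts, so the shares are descriptions.

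**Figure D5:**
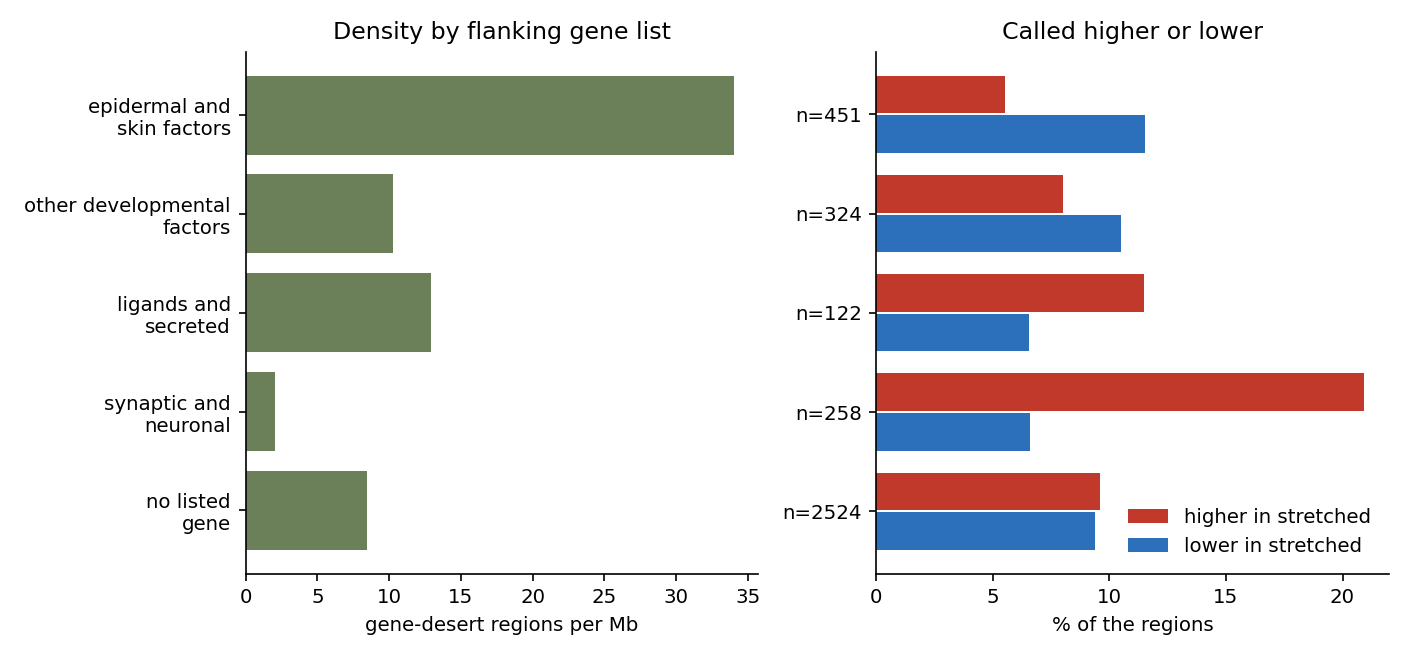
Bars on the left give open regions per Mb of desert sequence for deserts that border a gene of each list, and bars on the right give the percentage of those regions called higher (red) or lower (blue) in the stretched library, with the number of regions at the axis. Density is highest beside epidermal factors (34.0 per Mb) and lowest beside neuronal genes (2.03 per Mb), and the red bar is longest beside neuronal genes (20.9%).

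Among the epidermal deserts the directions were mixed and followed the locus. Of 24 such deserts, 12 had a fold above 1 and 12 below, with the interval above 1 in 6 and below 1 in 10. The desert between A1bg and Myc, a driver of cell growth and proliferation, held 40 regions with 2029 and 2630 counts (fold 1.37, 1.29 to 1.45), 6 higher and 3 lower. Its leading region chr15:61294051-61295238, 690 kb from Myc, went from 175 to 304 counts (fold 1.84, 1.52 to 2.22), under the limit of a call. On the other side of Myc, toward Gsdmc, 25 regions had a fold of 1.09 with an interval across 1 (0.982 to 1.21).

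The Bcl11b desert stood at the low end. BCL11B (CTIP2) is a zinc finger factor of epidermal proliferation and of T cells. Between Gm52008 and Bcl11b, 25 regions held 1304 control and 610 stretched counts (fold 0.494, 0.448 to 0.545), 24 of 25 lay below a fold of 1, 12 were called lower and none higher. Per region the control counts ran from 16 through a median of 32 to 172 and the stretched counts from 3 through 16 to 88. The region chr12:107496788-107497532, 413 kb from Bcl11b, had 121 and 23 counts (fold 0.201, 0.123 to 0.316), and the authors' fold enrichment there was 14.1 (control) and 6.87 (stretched). The strongest region, chr12:107402617-107403612, had 172 and 88 counts (fold 0.541, 0.413 to 0.703). Without this desert the epidermal list had 40 lower calls in place of 52. These 25 of the 451 regions thus gave 12 of the 52 lower calls. The 11.5% lower of the list rests in part on this 1 desert, where 9.46% of all desert regions were lower.

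Other epidermal deserts differed in direction. Beside Id4, an inhibitor of basic helix-loop-helix factors, 19 regions toward Rnf144b had a fold of 0.742 (0.672 to 0.819), with 6 lower and none higher. Beside Foxq1, a forkhead factor of the hair shaft, 17 regions toward Exoc2 had a fold of 0.811 (0.731 to 0.901), with 4 lower and none higher. Between Klf5, a factor of proliferating basal cells, and Klf12, 15 regions had a fold of 1.51 (1.39 to 1.64). Of these, 11 lay above 1 and 1 was called higher. Beside Sox9, a factor of hair follicle stem cells, 30 regions toward Gm11677 had a fold of 1.03 with an interval across 1 (0.965 to 1.10).

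Neuronal deserts held few regions each, and their higher calls were spread over many loci. Of 67 such deserts, 30 had at least 1 higher region and 13 at least 1 lower, and no desert gave more than 7 of the 54 higher calls. The 7 came from the desert between Gm6749 and Grm7, a glutamate receptor, whose 9 regions all lay above 1 and held 202 control and 443 stretched counts (fold 2.32, 1.96 to 2.75). In the desert between Slitrk5, a synaptic adhesion gene, and Gpc5, a glypican, 6 of 11 regions were higher and the counts were 266 and 457 (fold 1.82, 1.56 to 2.12). Its leading region, chr14:114348881-114350048, had 77 and 153 counts and was called higher (interval 1.59 to 2.80). Between Pdzrn3 and Cntn3, a contactin, 3 regions within 4.70 kb were all higher, the largest with 38 and 103 counts. Against this, the 11 regions beside Cadm1, a cell adhesion gene also made outside neurons, had a fold of 0.621 (0.531 to 0.724), with 4 lower.

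The 3 neuronal deserts with the most regions showed smaller changes. Between Slitrk1 and Slitrk6, 16 regions had a fold of 1.49 (1.34 to 1.66), with 2 higher and 1 lower. Between Dcc, a netrin receptor, and Mex3c, 16 regions had a fold of 1.25 (1.13 to 1.38), with 3 higher and 1 lower. Between Gm40892 and Flrt2, an adhesion gene, 15 regions had a fold of 1.30 (1.16 to 1.45), with 2 higher. Their leading regions were chr14:110100629-110101674 with 76 and 113 counts, chr18:73303546-73304979 with 96 and 159, and chr12:95347175-95348483 with 100 and 118, none of them called. Under total scaling 26 of the 67 neuronal deserts had a fold above 1, beside 1 of the 24 epidermal ones.

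Of the 239 deserts with at least 5 regions, 14 had every region above a fold of 1 and 9 had every region below. In 2 of the 239 every region was called higher, and in none was every region called lower. One of these lay between Gm51483 and Ndn, an imprinted gene of the Prader-Willi region that is active on the paternal copy. Its 7 regions spread over 310 kb of chromosome 7, with control counts of 14, 14, 28, 6, 14, 26 and 9 in order along the chromosome and stretched counts of 38, 38, 75, 25, 34, 78 and 43. Over the 7 regions the summed fold was 3.15 (2.53 to 3.94). In 6 of them the peak was listed in the stretched library alone. The Mir344 genes printed above stand in this desert. The region chr7:61790116-61790769 overlaps Mir344b and had 9 and 43 counts (fold 5.05, 2.43 to 11.8). The region 7.79 kb from Mir344h-2 had 26 and 78 counts and the region 7.29 kb from Mir344d-3 had 14 and 34. Under total scaling the summed fold was 2.23. The desert was singled out after its values were seen, and its regions are of low count.

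Developmental factors outside the skin list had deserts at either end of the range. Beside Zeb2, a factor of epithelial to mesenchymal change, 42 regions toward Acvr2a had a fold of 1.22 (1.15 to 1.31), with 3 higher and 2 lower. Its leading region chr2:48001902-48002716 had 111 and 166 counts (fold 1.58, 1.24 to 2.03). Beside Tbx3, 28 regions had a fold of 0.960 with an interval across 1, and beside Maf 20 regions had 0.965, also across 1. The leading regions there, chr5:119085946-119087687 with 163 and 133 counts and chr8:116030902-116032071 with 215 and 231, had intervals across 1 as well. All 12 regions between Itga1, an integrin subunit, and Isl1, a LIM homeodomain factor, lay above 1, with 414 and 744 counts (fold 1.90, 1.68 to 2.15) and 3 called higher. One of them, chr13:115757810-115758565, had 47 and 138 counts (fold 3.10, 2.21 to 4.42). All 7 regions between Gm765 and Foxp1, a forkhead factor, lay below 1, with 394 and 238 counts (fold 0.638, 0.541 to 0.752) and 4 called lower.

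Deserts of ligands leaned upward. Of the 17, 15 had a fold above 1 and 2 below, with the interval above 1 in 8 and below 1 in 1, while under total scaling 8 folds stayed above 1. Between Adamts5, a matrix protease, and N6amt1, 34 regions had a fold of 1.45 (1.34 to 1.57), and 29 of them lay above 1, though 5 were called lower and 3 higher. The leading region chr16:87085710-87086996 had 117 and 203 counts (fold 1.83, 1.45 to 2.32). Beside Thbs1, a matrix glycoprotein, 20 regions had a fold of 1.23 (1.11 to 1.35), and its leading region chr2:117802647-117803767 had 92 and 160 counts. Beside Cxcl12, a chemokine, 11 regions had a fold of 0.938 with an interval across 1, while the leading region chr6:117390081-117391003 had 105 and 157 counts (fold 1.58, 1.23 to 2.04). The Shh desert, toward Rnf32, was the one with its interval below 1 (10 regions, fold 0.804, 0.698 to 0.925).

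Among the 128 deserts with at least 10 regions, those with no listed neighbour gave the upper extreme and part of the lower one. All 10 regions between Stpg2 and Pdha2 lay above 1, 7 were called higher and 8 had a peak in the stretched library alone. They held 155 control and 344 stretched counts (fold 2.35, 1.93 to 2.85), with control counts from 7 through a median of 13.5 to 30 and stretched counts from 16 through 30 to 60. All 10 regions between Zpld1 and Nfkbiz, an inducible regulator of NF-kappaB, also lay above 1 (fold 1.60, 1.43 to 1.79), with 3 called higher. Beside Gja1, which encodes connexin 43, 24 regions toward Hsf2 had a fold of 1.56 (1.42 to 1.72), with 6 higher and none lower. In the other direction, 29 regions between Rps24 and Zmiz1 held 1927 and 1240 counts (fold 0.680, 0.633 to 0.731), with 10 lower and none higher. Its strongest regions fell short of a call, among them chr14:24778851-24779777 with 310 and 228 counts (fold 0.777, 0.652 to 0.925). The deserts at the extremes were named after their values were seen.

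Most of the strongest single regions changed little. The region of most counts, chr3:5860349-5860822 between Pex2 and 1700008P02Rik, had 1434 control and 1509 stretched counts (fold 1.11, 1.03 to 1.20) and the highest fold enrichment among the desert regions within the count limits, 32.9 and 31.5. The region chr11:7423245-7424442 between Igfbp3 and Tns3 had 534 and 644 counts (fold 1.27, 1.13 to 1.43). The region chr19:26090540-26092093 between Dmrt2 and Smarca2 had 407 and 508 (1.32, 1.16 to 1.51). The region chr13:28699309-28700328, 249 kb from Sox4, had 335 and 434 (1.37, 1.18 to 1.58). The region chr13:72197963-72199454 between Irx1 and Irx2, homeobox factors of one cluster, had 366 and 376, with an interval across 1. A neighbouring pair on chromosome 2 between Lrrc4c and Iftap went the other way: chr2:98666250-98667311 had 771 and 366 counts (0.502, 0.442 to 0.569) and chr2:98662376-98662815 had 469 and 273 (0.615, 0.528 to 0.716). Next in fold enrichment were chr18:68692069-68692305 between Mc2r and Tcf4, with 119 and 109 counts (enrichment 22.1 and 25.7), and, for the stretched library, chr14:9336889-9337739 between Cfap20dc and Fhit, with 255 and 337 counts (15.4 and 20.7). Repeats and mappability at these regions were not analysed here.

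Among the 8 strongest regions 1 was called. It spans the start of the lncRNA gene Gm26901, chr1:7397215-7398571 between Pcmtd1 and Sntg1, whose window with 5 GGGCGG matches is printed above. It had 209 control and 642 stretched counts (fold 3.25, 2.77 to 3.81), the summit pileup went from 91 to 281 fragments, and the fold enrichment was 11.1 and 12.9. A single control value of 209 with 642 in the stretched library has no replicate behind it.

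The largest folds up came from regions of low control count. The region chr6:10690355-10690911 between Nxph1, a neurexophilin, and Ndufa4 had 0 control and 52 stretched counts, at least 18.3-fold higher against a floor of 3 counts, with an exact interval starting at 14.4. The region chr6:76487710-76488386, toward Ctnna2, a neuronal catenin, had 4 and 48 counts (fold 12.7, 4.64 to 48.4). The region chr6:25260379-25261103 between Tmem229a and Gpr37 had 9 and 64 (7.51, 3.72 to 17.2). The region chr2:133263465-133264169, 288 kb from the nearest gene end and between Fermt1, the integrin activator kindlin-1, and Bmp2, had 9 and 44 (5.17, 2.49 to 12.0). All 6 regions with the largest folds up, of which 4 are given here, had a peak in the stretched library alone.

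The largest folds down kept some stretched counts. The region chr12:106293073-106293542 between Vrk1 and Gm46320 had 46 and 7 counts (fold 0.161, 0.0613 to 0.359). The region chr7:129919951-129920418 between Wdr11 and Fgfr2, the receptor for keratinocyte growth factors, had 54 and 9 (0.176, 0.0764 to 0.360). The region chr3:85210087-85210896 between Fbxw7, a ubiquitin ligase subunit, and Gatb had 68 and 13 (interval 0.102 to 0.369). The region chr4:142728662-142729656 between Kazn, a desmosome-associated protein, and Prdm2 had 96 and 20 (0.220, 0.129 to 0.359). The region chr19:35204129-35204846 between Kif20b and Htr7 had 51 and 11 (0.228, 0.107 to 0.443), and the sixth was the Bcl11b region above. Of these 6, 4 had a peak in the control library alone.

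The paralogous microRNA loci went in opposite directions without a called region in either. Near Mir100, Mirlet7a-2 and Mir125b-1 on chromosome 9, 8 regions held 272 control and 176 stretched counts (fold 0.684, 0.562 to 0.830), and 7 lay below 1. The largest of them, chr9:41524738-41526691, 4.73 kb from Mir100, had 96 and 50 counts. Near Mir99a, Mirlet7c-1 and Mir125b-2 on chromosome 16, 4 regions held 277 and 389 counts (fold 1.48, 1.27 to 1.74), and all 4 lay above 1. The largest, chr16:77643067-77644748, 1.53 kb from Mir125b-2, had 129 and 197 counts (fold 1.61, 1.29 to 2.03). Scaled by total counts the folds were 0.484 and 1.05, in the same ratio to each other. The starts of the host genes differed by less than counting error: 60 and 54 counts at Mir100hg (fold 0.951, 0.646 to 1.40) and 75 and 69 at Mir99ahg (0.972, 0.691 to 1.37). The loci were grouped after their values were seen.

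Other non-coding genes were common in the deserts. Inside an annotated non-coding gene lay 758 desert regions (20.6%), 751 of them in lncRNA genes, and 1161 (31.6%) were within 10 kb of one. For intergenic regions at 50 to 200 kb these shares were 23.9% and 39.9%, and within 50 kb 19.1% and 38.6%. A lncRNA start window touched 2.01% of desert regions, beside 3.00% at 50 to 200 kb and 2.61% within 50 kb. Of the 74 desert regions at a start, 7 were higher and 5 lower. Regions with a non-coding gene within 10 kb were 7.06% higher and 10.9% lower, and the 2518 without one 11.1% and 8.82%. In the Klf5 desert, the region at the Gm41230 start had 142 and 245 counts (fold 1.82, 1.48 to 2.26) and the region at the Gm34061 start, chr14:99578452-99580369, had 173 and 270 (1.65, 1.36 to 2.01).

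Neighbouring regions of 1 desert tended to share their direction. Of 34 neighbouring pairs up to 5 kb apart in which both regions were called, 32 had the same direction, and of 55 pairs at 5 to 20 kb, 42 had. The Pearson r of the log2 folds was 0.31 over 862 pairs up to 5 kb apart and 0.14 over 493 pairs at 50 to 200 kb, and intergenic regions nearer to genes gave 0.31 at the shorter gap. Restricted to desert regions of at least 100 counts, r was 0.45 (100 pairs) and 0.40 (189 pairs). These are descriptions over pairs that share a locus, both libraries and their depth.

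Chromosomes differed in the share of desert regions called. On chromosome 6, 24 of 111 regions were higher (21.6%) and 14 lower (12.6%), on chromosome 10, 35 of 195 were higher (17.9%) and 10 lower (5.13%), and on chromosome 15, 26 of 156 were higher (16.7%). On chromosome 9, 20 of 123 were lower (16.3%) and 9 higher (7.32%), and on chromosome 4, 30 of 228 were lower (13.2%) and 12 higher (5.26%). Chromosome 11 had the fewest higher calls as a share, 7 of 148 (4.73%). Over all autosomal regions 6.99% were higher and 8.79% lower. The median log2 fold of the chromosome 6 regions was -0.04, with 51 above a fold of 1 and 60 below. Shares over all regions of each chromosome are not given here, so a shift of a whole chromosome cannot be told apart from one of its deserts. Regions of a chromosome also share deserts.

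The longest regions were a group of their own. Of the 36 desert regions of 2 kb or more, 12 were lower and 1 higher, where 68 and 94 of all 2022 autosomal regions of that length were. The groups differ in depth, with median summed counts of 77.5 and 362, and lower calls were fewer at high counts. The 3 longest, chr10:103631983-103636273, chr5:77627697-77631777 and chr2:95286559-95290427, were 4291, 4081 and 3869 bp with 35, 41 and 42 control counts and 12, 14 and 11 stretched counts. All 3 were called lower. A region's count would be expected to reach the pileup inside it. In 14 of the 36 the control count was below the control summit pileup and in 8 the stretched count was below its own. Among the 3643 shorter desert regions this held for 83 and 210. The part of this in the calls was not tested. Without regions of 2 kb or more, 336 of 3643 desert regions were lower (9.22%) and 360 higher (9.88%).

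The rule left out 3 desert regions of over 10000 counts. The region chr4:80002933-80005186 between Ptprd and Tyrp1 held 268852 control and 525486 stretched counts, chr12:97061430-97061788 between Flrt2 and Galc 105827 and 163868, and chr6:9889939-9890197 between Nxph1 and Ndufa4 7503 and 12002. Their counts were 8.73 to 24.9 times the summit pileup, whereas over the desert regions kept this ratio had medians of 1.78 (control) and 1.54 (stretched) and did not pass 4.71.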

How the data were processed

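ATAC-seq of 2 libraries of sorted basal cells, 1 per treatment label, was read from the processed files. The authors deposited whole-number counts per merged region, not normalized, for 109257 regions common to the libraries. The sources used here do not say if reads or fragments were counted, if duplicates had been removed or how the Tn5 shift was handled. Peaks were called by the authors on each library alone with MACS2 from paired-end fragments, without a control file, per the file headers. The deposited pileup at a summit is a signal in whole fragments. Fold enrichment, a ratio deposited by the authors, divides it by a local background within the library, and the deposited -log10 values of p and q test it against that background. Per the submitters' processing notes the tools were Picard, HTSeq, SAMtools, MACS2 2.1.0.20151222 and Bowtie2 2.2.6, with GRCm38.

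Folds were computed after TMM scaling over all regions (edgeR 4.0.16, R 4.3.3, stretched over control ratio 0.946). Exact Clopper-Pearson intervals (95%, scipy 1.17.1) cover counting error only, since counts made without molecular identifiers do not count independent molecules. A count of 0 was set to a floor of 3. A call needed 20 summed counts, a fold of at least 2 or at most 0.5 and an interval leaving out 1. No test was run, since each group is 1 library. Tested on simulated counts with no variation between animals (93145 regions, stretched against control), this rule called 100% and 98.0% of 50 regions each changed 4-fold up and down, 85.7% and 73.5% of 49 each at 2.5-fold, and 1.30% of 90334 unchanged regions. Region starts were read as 0-based. Gene spans came from the RefSeq table of GRCm38.p6, which has no strand. Distances run to either end of a protein-coding gene, and a desert is a gap between neighbouring protein-coding spans. The pileup change is per fragment and relative to its median over all autosomal regions with both peaks.

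Regions were named by rule: the 8 with most counts, the 6 largest folds each way among called regions of at least 50 counts, the 3 longest, the 3 farthest from genes, the 3 of highest enrichment per library, and the leading region of the 5 fullest deserts and of the 3 fullest deserts per flanking list. Other deserts and regions were chosen after their values were seen. Another desert in which all regions were called higher, and its regions among the largest folds up, are not reported here. The members and lists were chosen with earlier results of these data known. The planned motif shares over the regions themselves need a genome sequence and were not analysed here, so motifs were searched in RefSeq start windows. Alternatives were other scalings (with DESeq2 1.42.0 size factors), count, fold, distance and interval limits, and other peak rules.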

Additional observations from a re-analysis of the deposited data

How the results depend on the processing

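Scaled by total counts, 123 desert regions were higher, 821 lower and the median log2 fold was -0.43. The scale without regions of over 10000 counts gave a median of -0.0732, where all autosomal regions had -0.15, and removal of the count trend gave 0.0936. A scaling by 1 factor shifts both medians alike, so it could not change which of them stood higher. Removal of the count trend could, and there all autosomal regions had a median of -0.00468. With at least 50 counts, 1957 regions remained, 183 higher (9.35%) and 132 lower (6.75%) with a median of 0.10. All autosomal regions of that depth had 6.11%, 6.13% and 0.0386. With at least 100 counts it was 910, 70 (7.69%), 26 (2.86%) and 0.19, beside 5.92%, 2.90% and 0.129. Over 100 kb from genes there were 7967 regions, 748 higher (9.39%) and 753 lower (9.45%), beside 6.99% and 8.79% of all autosomal regions. Over 500 kb there were 650, with 94 higher, 59 lower and a median of 0.24. Over 10 kb from non-coding genes 279 were higher (11.1%) and 222 lower (8.82%), beside the same 6.99% and 8.79%. A fold limit of 1.5 gave 595 higher, and a limit of 3 gave 133 higher and 133 lower. As shares, 14.5% were higher over 500 kb and 2.86% lower with at least 100 counts. Regions with both peaks were 36.9% at a -log10 q of at least 5, 50.6% over 500 kb and 86.1% with at least 50 counts. Taking the first summit gave fold enrichments of 4.98 and 6.32 and pileups of 23 and 26 in control and stretched.

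For the lists, alternatives were added after the data were seen. Beside epidermal factors total scaling gave 4 higher and 128 lower, 50 counts gave 14 and 24, and 100 counts 5 and 5. Beside neuronal genes these gave 17 and 38, 28 and 6, and 12 and 2, and within 500 kb of a gene end 30 and 11. So beside epidermal factors higher and lower calls were equal in number at 100 counts, where all 910 desert regions gave 70 higher and 26 lower. Total scaling multiplies all folds by 1 factor and left 3.34% of desert regions higher and 22.3% lower, beside 6.59% and 14.7% for the neuronal list. No paired analysis was possible because each group is 1 library. Depth limits single regions: the median desert region held 27 control and 26 stretched counts.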
